A study of Mus musculus with 9 samples.

Results

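The Hippo pathway genes examined here were Yap1 and its paralog Wwtr1, which encodes TAZ, the 4 TEAD transcription factors Tead1, Tead2, Tead3 and Tead4, and 4 genes widely used as readouts of YAP and TAZ, namely Ccn1, Ccn2, Ankrd1 and Amotl2. They were taken by gene symbol, by a rule that uses no measured value but was set with earlier results of these data known, and are 10 of the 32285 mouse genes counted in single cells of mouse brain and brain tumor. Each gene was followed as unique molecular identifier (UMI) counts per mouse, over all kept cells and within cell types gated by marker genes.

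YAP and TAZ are transcriptional coactivators that bind no DNA themselves. In the Hippo pathway the kinases Stk3 and Stk4 activate Lats1 and Lats2, which phosphorylate YAP and TAZ and hold them in the cytoplasm. When this brake is released they enter the nucleus and join TEAD proteins on target genes such as Ccn1 and Ccn2, which encode secreted matricellular proteins of blood vessels and injured tissue. In ependymoma, YAP1 fusions define a supratentorial class separate from the one driven by ZFTA-RELA. RNA levels of Yap1 and Wwtr1 do not report the phosphorylation that controls their proteins.

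The samples were 5 brain tumors from NestinCreERT2;Fus1 mice, which carry a ZFTA-RELA fusion allele at Rosa26 behind a stop cassette that Cre removes (EP ZFTA-RELA), and 4 brains from NestinCreERT2;TdT mice as controls. All mice were 6 to 8 weeks old, and the Nestin-driven, tamoxifen-dependent CreERT2 was shared by both groups, so the fusion could arise only in Nestin-expressing cells and their progeny. Tissue was dissociated, passed through Percoll, sorted with DAPI and anti-Ter119 and captured with 10x 5' chemistry. The label "Brain" was given to both groups, and whether any library pooled animals was not stated in the labels.

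The libraries of the groups stood apart before any gene was compared. Control libraries listed 75222 to 86516 barcodes and tumor libraries 9001 to 26341, with 101060608 to 178086164 and 14967680 to 69411387 UMIs. After filtering, 20405 control and 15916 tumor cells were kept, with median UMIs per cell of 2032 to 4115 and 2068 to 6512 across mice. How many of the kept control barcodes are intact cells was not settled, which bears on each control gate value below. Neuron-gated cells made up 81.4% of the control cells, and even control cells gated as endothelial or myeloid carried a median of 4 and 5 of the 8 neuron markers, against 1 in both of these gates in tumors. Counts from the fusion or luciferase sequence of the allele were 0 in every control. At most 9 kept barcodes were shared by any pair of libraries, and the barcode list of control 4 did not match its matrix in length (80865 names for 80887 columns), so its barcodes were not compared. The gated control cells were few: 16, 12, 21 and 8 endothelial-gated cells in controls 1 to 4, against 127, 115, 173, 105 and 76 in tumors 1 to 5.

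The start regions of the members show the element through which TEAD proteins read DNA. The core TEAD motif GGAATG, or CATTCC on the other strand, was searched in the 250 bases before each RefSeq start (GRCm38.p6), and 7 of the 10 members were in the promoter table. It was found in 6 of these 7, the exception being Tead2, and in 12.6% of the 27025 genes of that table. The AP-1 motif TGANTCA was in 0 of the 7 members and in 6.87% of all genes, and no motif in this window says nothing about distant elements. The 4 windows below, from the targets Ccn1 (chr3:145649986-145650235, minus strand), Amotl2 (chr9:102717554-102717803, plus strand) and Ankrd1 (chr19:36119845-36120094, minus strand) and from Yap1 itself (chr9:8004597-8004846, minus strand), are shown 5′ to 3′ with the motif in capitals, to let the reader see how the shared element sits in otherwise unlike sequence.
Ccn1: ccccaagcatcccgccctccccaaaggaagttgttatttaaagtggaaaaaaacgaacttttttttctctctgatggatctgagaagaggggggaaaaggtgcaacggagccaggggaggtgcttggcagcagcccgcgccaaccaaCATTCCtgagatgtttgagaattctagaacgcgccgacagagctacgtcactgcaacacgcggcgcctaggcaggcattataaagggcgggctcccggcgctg
Amotl2: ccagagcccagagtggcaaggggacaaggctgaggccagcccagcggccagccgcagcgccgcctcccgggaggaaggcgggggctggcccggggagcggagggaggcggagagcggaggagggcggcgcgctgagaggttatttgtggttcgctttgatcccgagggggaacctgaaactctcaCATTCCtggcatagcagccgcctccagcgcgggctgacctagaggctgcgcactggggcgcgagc
Ankrd1: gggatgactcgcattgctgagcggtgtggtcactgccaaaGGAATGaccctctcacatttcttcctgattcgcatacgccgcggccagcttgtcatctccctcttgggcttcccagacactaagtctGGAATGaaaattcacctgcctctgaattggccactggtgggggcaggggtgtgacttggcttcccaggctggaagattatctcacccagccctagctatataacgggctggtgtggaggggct
Yap1: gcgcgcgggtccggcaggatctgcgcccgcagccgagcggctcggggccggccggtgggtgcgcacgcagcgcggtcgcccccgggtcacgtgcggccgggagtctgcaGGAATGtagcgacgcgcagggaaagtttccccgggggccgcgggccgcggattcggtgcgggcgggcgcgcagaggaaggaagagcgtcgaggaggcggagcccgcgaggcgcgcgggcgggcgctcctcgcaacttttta

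Ccn2, whose gene lies at chr10:24595442-24598683 in the same build, was not in the promoter table, and neither were Tead1 and Tead4. A match is a description of letters and was not tested as a binding site.

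Over all kept cells, the coactivators, Tead1 to Tead3 and the targets Ccn1, Ccn2 and Amotl2 were higher in tumors than in control brain. Of the 10 members, 8 passed the filter on low counts and all of these 8 rose (edgeR quasi-likelihood test, adjusted p under 0.05), in a comparison in which 61.6% of the 17599 genes tested were called and 32.3% were called higher, so a call here is common. Tead4 and Ankrd1 were below the filter. In such sums, fewer cells of a type and less RNA per cell cannot be told apart. The cell type lists moved too: summed over 8 genes, the neuron list was at 10066 to 10708 CPM (UMIs per 1000000 UMIs counted) in controls and 229 to 4271 in tumors, and the endothelial list at 80.9 to 149 and 427 to 2584 CPM, with no list gene at 0. Without the neuron-gated cells 7 of the 8 members were called, and the part of the endothelial list was not tested.

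**Figure D1:**
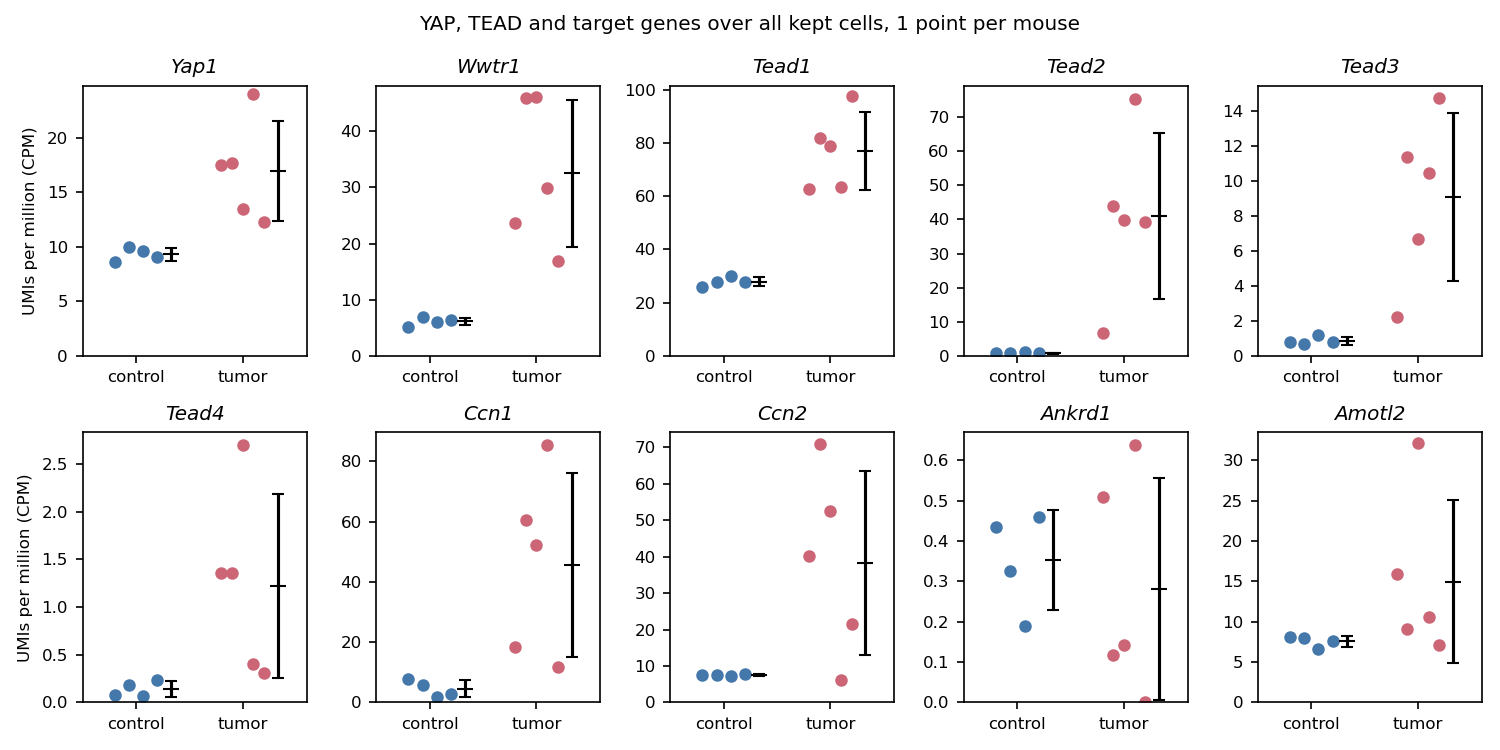
CPM of each gene over all kept cells, with 1 point per mouse for 4 controls and 5 tumors and the mean ± SD as the black bar. Tead2 lay between 6.78 and 75.4 CPM in tumors and at or under 1.07 in controls, whereas Ccn2 in tumor 4 (6.27 CPM) lay below every control.

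Both coactivators rose, Wwtr1 by more than Yap1. Yap1 measured 8.57, 10.0, 9.59 and 9.03 CPM in controls 1 to 4 and 17.4, 17.7, 13.5, 24.0 and 12.2 CPM in tumors 1 to 5, a log2 fold change of 1.15 ± 0.28 (SE; edgeR adjusted p = 0.00559). Wwtr1 measured 5.23, 6.88, 6.06 and 6.40 CPM in controls and 23.7, 46.0, 46.0, 29.9 and 16.9 CPM in tumors, a log2 fold change of 2.66 ± 0.35 (edgeR adjusted p = 0.000317). For both genes every tumor lay above every control. Without neuron-gated cells both overlapped through tumor 5, with Yap1 at 11.6 to 12.9 CPM in controls and 12.2 CPM in that tumor (log2 fold change 0.73, edgeR adjusted p = 0.0374) and Wwtr1 at 10.1 to 17.7 and 16.8 CPM (1.55, edgeR adjusted p = 0.00457).

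Among the TEAD genes, Tead1 was readily counted in control brain, at 26.0, 27.8, 30.0 and 27.7 CPM. It measured 62.9, 81.8, 78.8, 63.6 and 97.8 CPM in tumors 1 to 5 (log2 fold change 1.73 ± 0.21, edgeR adjusted p = 0.000261). Tead2, a TEAD gene known from embryonic neural progenitors, was close to absent in controls, at 0.727 to 1.07 CPM. It reached 6.78, 43.9, 39.8, 75.4 and 39.2 CPM in the tumors, a log2 fold change of 5.93 ± 0.73 (edgeR adjusted p = 0.000264). The lowest tumor for Tead2, tumor 1, was still above all controls, also without neuron-gated cells (8.29 against 1.56 to 1.92 CPM, log2 fold change 4.86). Tead3 was at 0.697 to 1.20 CPM in controls and at 2.20, 11.4, 6.68, 10.5 and 14.7 CPM in tumors (log2 fold change 3.72 ± 0.59, edgeR adjusted p = 0.000766, and 2.66 without neuron-gated cells). Tead4 was sparse in both groups, with 11 UMIs in all control cells and 70 in all tumor cells.

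The targets were less uniform. Ccn1 measured 7.85, 5.90, 1.64 and 2.81 CPM in controls and 18.5, 60.5, 52.3, 85.4 and 11.8 CPM in tumors, without overlap (log2 fold change 3.66 ± 0.74, edgeR adjusted p = 0.00248). Ccn2 was nearly constant in controls at 7.48, 7.44, 7.38 and 7.83 CPM. In tumors it ranged from 6.27 CPM in tumor 4 to 70.9 CPM in tumor 2, with 40.3, 52.4 and 21.6 CPM in tumors 1, 3 and 5 (log2 fold change 2.58 ± 0.57, edgeR adjusted p = 0.00392). Amotl2, which encodes an angiomotin-family protein that binds and restrains YAP and is itself a target, gave the highest adjusted p of the 8, at 6.56 to 8.14 CPM in controls and 15.9, 9.06, 32.1, 10.5 and 7.15 CPM in tumors (log2 fold change 1.15 ± 0.35, edgeR adjusted p = 0.0183). Its groups overlapped, and the call was lost without control 3, without neuron-gated cells or with no limit on the number of barcodes. Ankrd1, a muscle ankyrin-repeat protein and classic YAP target, was at 0.189 to 0.461 CPM in controls and 0 to 0.637 CPM in tumors, 56 UMIs in all.

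The flat control values were set beside the shallowest barcodes. The 3000 barcodes with the fewest UMIs of each library had a median of 559 to 649 UMIs in tumors and 691 to 1338 in controls, no listed barcode had under 468 UMIs, and 0 of them were among the kept cells. Whether they hold RNA from outside cells or poor cells was not tested. In the 3000 barcodes with the fewest UMIs of each library, Ccn2 measured 8.26 to 12.7 CPM in controls, above the level over kept control cells in 4 of 4 mice, and 81.8% of the control Ccn2 UMIs lay in neuron-gated cells, which were 81.4% of cells. In tumors the same kind of barcode held Ccn2 at 11.6 to 34.8 CPM, and the level over all kept cells exceeded it in 4 of 5 tumors. Its part in the values of single gates was not tested. This level, called the low-depth level, is set beside the gate levels below as the number of tumors above it.

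Among gates with at least 20 cells in at least 2 tumors, Ccn2 was highest in endothelial-gated cells. Endothelial-gated cells were 3.74% of the kept tumor cells and held 54.1% of all Ccn2 UMIs, and the share was 53.4%, 53.5%, 76.7%, 39.8% and 42.4% in tumors 1 to 5. Their level was 348, 1159, 327, 125 and 498 CPM (mean 491 ± 396, SD, n = 5), above the low-depth level in 5 of 5 tumors. Mural-gated cells, the pericytes and smooth muscle cells of vessel walls, came next at 124 ± 118 CPM (n = 3 tumors with at least 20 such cells), and the ranges of both gates overlapped. The mural range, 16.2 to 250 CPM, also overlapped that of ungated cells, which came next at 36.5 ± 36.3 CPM (17.5 to 101 CPM, n = 5). Astrocyte-gated cells were at 9.30 ± 6.91 CPM and fusion-allele cells at 6.29 ± 5.01 CPM (both n = 5). Fibroblast-gated cells, which make connective tissue, were too few to rank, and their Ccn2 level was 1181 CPM in tumor 1 (46 UMIs in 7 cells), above its endothelial-gated cells, 201 CPM in tumor 2 (27 UMIs in 14 cells) and 0 to 2250 CPM in the other tumors, which held 1 or 2 such cells each.

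A fusion-allele cell is one with at least 1 UMI of the fusion or luciferase sequence that is ungated or has a progenitor, cycling or ependymal gate. There were 33, 716, 68, 2903 and 833 of them in tumors 1 to 5. Their Ccn2 level was 7.26, 10.1, 0, 2.32 and 11.7 CPM, below the low-depth level in all 5 tumors, so it is not read here as expression of these cells. The same held for Ccn2 in myeloid-gated cells of the 5 tumors (1.17 to 8.63 CPM). For other members the fusion-allele level also lay below the low-depth level in many tumors: it was above it in 1 of 5 for Yap1 and Amotl2, 2 of 5 for Wwtr1, 3 of 5 for Tead3 and 4 of 5 for Tead1. In myeloid-gated cells no tumor was above it for Yap1, Wwtr1, Tead1 or Amotl2. A level below the low-depth level does not exclude expression, since what those barcodes hold was not tested. For Tead1 in tumor 4 the low-depth level was 123 CPM, above the 63.6 CPM over all kept cells.

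**Figure D2:**
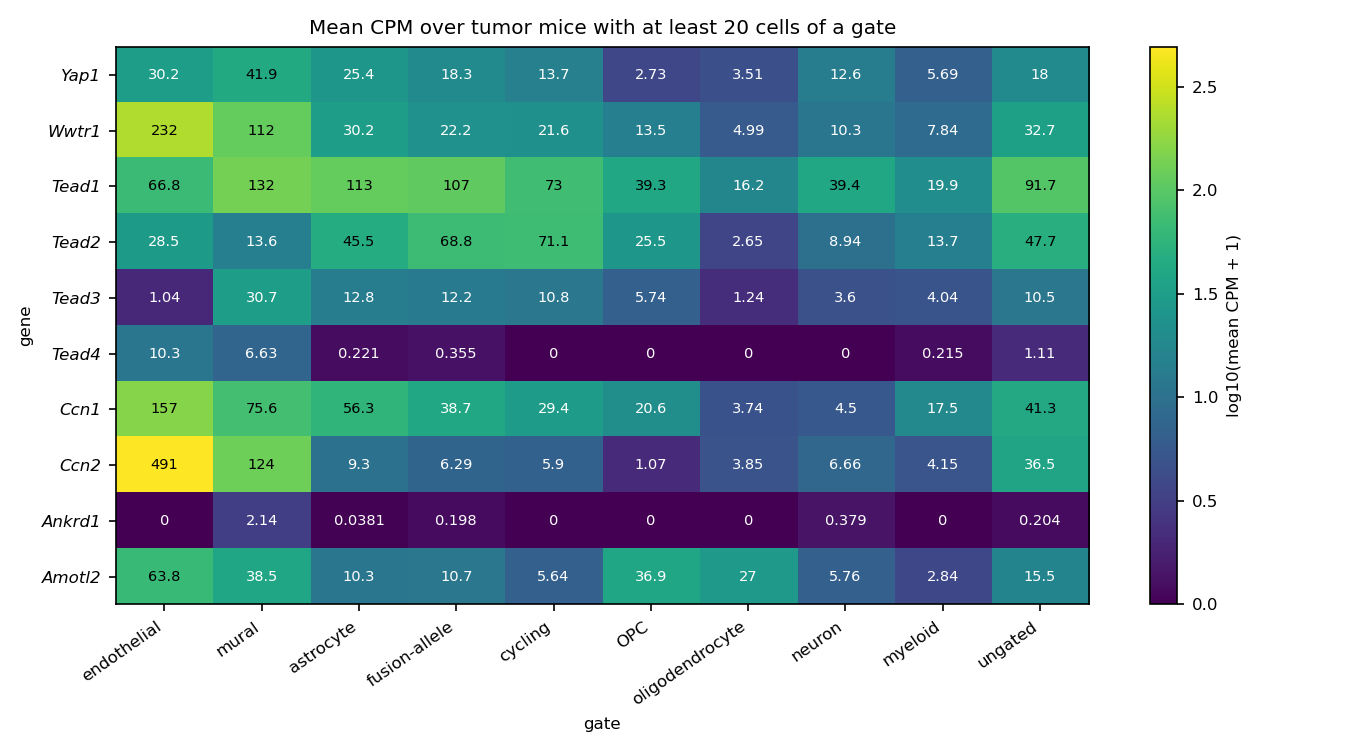
Mean CPM of each gene (rows) in each gate (columns) over tumor mice with at least 20 cells of that gate, shown for gates with at least 3 such mice, with the color giving log10(mean CPM + 1). Ccn2 peaked in endothelial-gated cells (491 CPM), as did Wwtr1 (232 CPM) and Ccn1 (157 CPM), whereas Tead2 was at 71.1 CPM in cycling-gated and 68.8 CPM in fusion-allele cells. The endothelial Ccn1 range overlapped that of radial glia-gated cells (mean 80.8 CPM), not shown here. In the few ependymal-gated cells, also not shown, Ccn1 was at 277, 191 and 58.5 CPM in tumors 1, 2 and 5 (17, 27 and 3 UMIs).

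Counted by cell, 41.9% of the 596 endothelial-gated tumor cells had a Ccn2 UMI, at a median of 3423 UMIs per cell, and the share was 42.5%, 59.1%, 27.2%, 35.2% and 57.9% in tumors 1 to 5. After each cell was thinned to 2000 UMIs, which left out 117 endothelial-gated and 33 fusion-allele cells, the share was 33.6% in endothelial-gated cells, 0.907% in fusion-allele cells and 0.566% in myeloid-gated cells. Myeloid-gated cells, which should lack the gene, give the background for this share. Single cells carried up to 53 Ccn2 UMIs in tumor 2, and the top endothelial-gated cell held 8.28 to 13.8% of the Ccn2 UMIs of that gate in each tumor, so the level did not come from 1 cell. Ccn1 and Ccn2 were found together in 9, 34, 20, 18 and 4 endothelial-gated cells of tumors 1 to 5, out of 18, 43, 41, 43 and 7 cells with Ccn1.

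Ungated tumor cells held a further 25.2% of the Ccn2 UMIs. Of these 601 UMIs, 81.7% lay in the 6.22% of ungated cells in which at least 3 endothelial markers were detected, a division chosen after the values were seen. That share was 51.9%, 87.9%, 12%, 78.9% and 83.7% in tumors 1 to 5, and tumor 2 held 357 of the 491 UMIs. Cells in which at least 3 mural markers were detected, which can be the same cells, held 223 of the 601 UMIs, and 16 of the 25 in tumor 3.

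**Figure D3:**
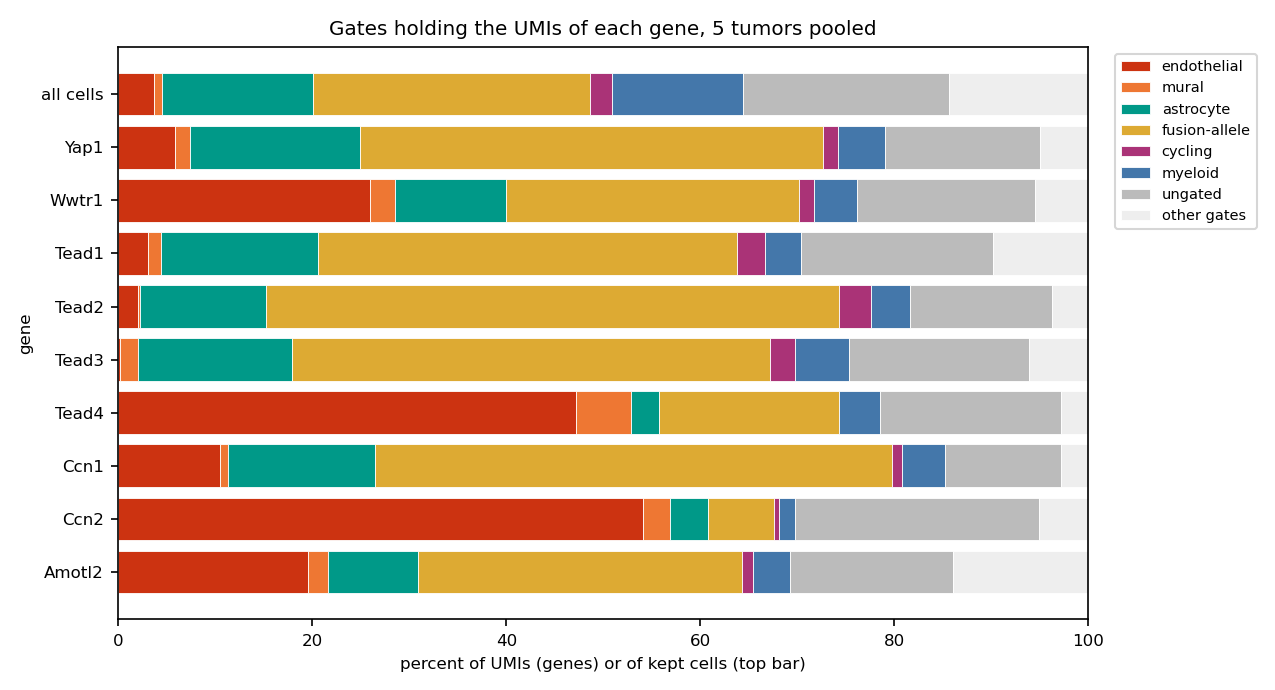
Share of the UMIs of each gene held by each gate in the 5 tumors pooled, with the share of kept cells as the top bar and Ankrd1 left out for its low count. Endothelial-gated cells (3.74% of cells) held 54.1% of the Ccn2 and 47.1% of the Tead4 UMIs, and fusion-allele cells (28.6% of cells) held 59.1% of the Tead2 and 53.3% of the Ccn1 UMIs. Fusion-allele cells held more UMIs per cell, at medians of 2570 to 7203 across tumors against 2068 to 6512 over all kept cells. Their share of cells is therefore below their share of all UMIs. Tumor 4 gave 2009 of their Tead2 and 2174 of their Ccn1 UMIs.

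Wwtr1 was likewise highest in endothelial-gated cells among gates with at least 20 cells. Its level was 167, 219, 253, 282 and 237 CPM in endothelial-gated cells of tumors 1 to 5 (232 ± 42.7, n = 5), 112 ± 16.6 CPM in mural-gated cells (n = 3) and 37.2 ± 4.95 CPM in radial glia-gated cells (n = 2), and these ranges did not overlap. The endothelial- and mural-gated levels were above the low-depth level in every tumor measured. Below them, astrocyte-gated cells (30.2 ± 11.8 CPM) and fusion-allele cells (22.2 ± 14.1 CPM) overlapped. Ependymal-gated cells, the ciliated lining of the ventricles, numbered 12, 18 and 6 in tumors 1, 2 and 5, and their Wwtr1 level of 147, 298 and 117 CPM overlapped that of endothelial-gated cells. Among gates with at least 20 cells Yap1 differed less, with 41.9 ± 5.75 CPM in mural-gated cells (n = 3), 30.2 ± 12.8 in endothelial-gated, 25.4 ± 3.81 in astrocyte-gated, 18.3 ± 6.11 in fusion-allele and 5.69 ± 5.03 in myeloid-gated cells (n = 5 each), and neighbours in this order overlapped. Yap1 was above the low-depth level in 3 of 3 tumors in mural-gated, 4 of 5 in astrocyte-gated and 2 of 5 in endothelial-gated cells. In the few ependymal-gated cells Yap1 was at 65.2, 63.8 and 97.5 CPM in tumors 1, 2 and 5, from 4, 9 and 5 UMIs.

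The TEAD genes divided between gates. Tead1 was high in neuroblast-gated (166 and 138 CPM in tumors 3 and 5, n = 2), mural-gated (132 ± 77.9 CPM, n = 3), astrocyte-gated (113 ± 36.9 CPM, n = 5) and fusion-allele cells (107 ± 29.6 CPM, n = 5) and low in myeloid-gated cells (19.9 ± 10.3 CPM, n = 5). Tead2 was highest in cycling-gated cells (71.1 ± 13.9 CPM, n = 3) and fusion-allele cells (68.8 ± 21.0 CPM, n = 5), which overlapped. Radial glia-gated cells came next at 66.5 CPM (48.8 and 84.2 CPM in tumors 2 and 4), also with overlap. A cycling- or radial glia-gated cell with a fusion-allele UMI is counted as a fusion-allele cell, so these gates can hold cells of the same kind. The fusion-allele level of Tead2 was 43.6, 68.0, 92.7, 86.4 and 53.4 CPM and lay above the low-depth level (3.42 to 59.9 CPM) in 5 of 5 tumors. Among gates with at least 20 cells Tead3 was led by mural-gated cells at 30.7 ± 17.8 CPM, from 4, 8 and 4 UMIs in tumors 2, 3 and 4. That range overlapped the one of astrocyte-gated cells (mean 12.8 CPM). Tead3 was near 0 in endothelial-gated cells at 1.04 ± 1.53 CPM, with 2 UMIs in 596 cells. In the few ependymal-gated cells it was at 0, 28.4 and 97.5 CPM in tumors 1, 2 and 5, from 0, 4 and 5 UMIs. Tead4 was at 10.3 ± 6.12 CPM in endothelial-gated and 6.63 CPM in mural-gated cells, with overlapping ranges, and at 0.355 ± 0.467 CPM in fusion-allele cells. It rests on 70 UMIs in all tumors. Against the low-depth level, Tead1 was above it in 4 of 5 tumors in astrocyte-gated and 1 of 3 in mural-gated cells, and Tead4 in 5 of 5 in endothelial-gated cells.

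In endothelial-gated cells, Ccn1 and Ccn2 lay higher in each tumor than in each control compared, on 1 and 3 control UMIs. This comparison addresses the same genes within 1 cell type, and used the 3 control mice with at least 10 such cells. Ccn2 measured 48.7, 16.8 and 0 CPM in controls 1 to 3 against 125 to 1159 CPM in tumors, a log2 fold change of 5.20 ± 1.09 (edgeR adjusted p = 0.0190). Ccn1 measured 0, 0 and 8.51 CPM in controls against 87.7, 257, 244, 155 and 40.6 CPM in tumors, a log2 fold change of 5.15 ± 1.15 (edgeR adjusted p = 0.0218). Neither gene overlapped between groups. These 2 were the members called among 7 tested, where 9.18% of 6059 genes were called and 4.82% were called higher, and with so few control UMIs both passed the filter through the tumors, where they could only be higher, so neither the count nor these p-values are read as support and the values per mouse stand as a description.

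**Figure D4:**
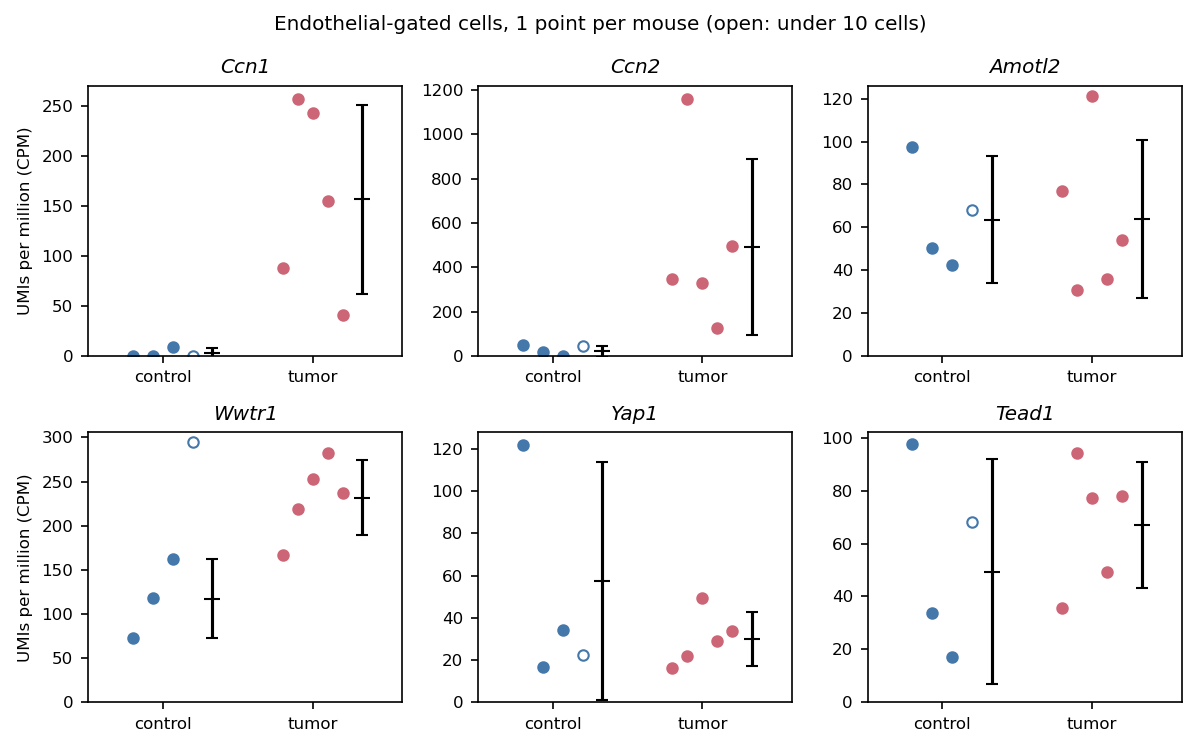
CPM of 6 genes in endothelial-gated cells, 1 point per mouse, with the mean ± SD of mice with at least 10 cells and control 4 (8 cells) as an open point. Ccn1 and Ccn2 separate the groups, whereas Wwtr1 in control 4 (294 CPM) lies above every tumor.

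The control side of this difference is thin. The 3 control mice held 1 Ccn1 UMI and 3 Ccn2 UMIs in all, and the ratio of pooled counts was 39.6 for Ccn1 (95% counting interval 7.07 to 1566) and 33.1 for Ccn2 (11.3 to 161), or 20.7 without tumor 2, which gave 640 of the 1291 tumor UMIs. Without 1 mouse the log2 fold change ran from 4.76 to 9.10 for Ccn1, highest without control 3, and from 4.31 to 6.50 for Ccn2. Both calls were lost without any 1 of the 3 controls, when 7 to 26 genes were called in all, and with limma voom, and both held when control 4 was added (log2 fold change 5.36 for Ccn1 and 4.70 for Ccn2).

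Several marker sets moved with this result. Endothelial-gated control cells carried more RNA of the neuron list (1371 to 2435 CPM summed over 8 genes, against 42.5 to 669 in tumors) and of the mural list (2843 to 3336 CPM with Acta2 at 0, against 25.4 to 2038), and less of the endothelial list itself (7864 to 9790 against 11019 to 19504 CPM). Immediate early genes, which respond within minutes to stress and tissue dissociation, summed to 281 to 472 CPM with Fosb at 0 in controls and 654 to 3806 CPM in tumors, and 2 of the 7 tested were called, Junb with log2 3.39 and Fos with log2 6.47, with all 7 at an unadjusted p under 0.05. Fos had 0, 1 and 0 UMIs in controls 1 to 3 and passed the filter through the tumors, and Junb had 2, 1 and 5 UMIs there. With so few control UMIs, neither these 2 calls nor the count of 7 is read as support. The groups overlapped for Fos, with 16.8 CPM in control 2 and 10.2 CPM in tumor 5. The part of these lists in the Ccn1 and Ccn2 values was not tested.

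The other members did not pass the test in endothelial-gated cells. Wwtr1 gave a log2 fold change of 0.98 ± 0.32 (edgeR adjusted p = 0.0734), with 73.0, 118 and 162 CPM in controls, and 0.59 when control 4 was included. Yap1 gave -0.54 ± 0.62, Tead1 0.89 ± 0.60, Tead2 1.13 ± 0.92 and Amotl2 0.27 ± 0.59 (edgeR adjusted p = 0.361 to 0.822). Tead3, Tead4 and Ankrd1 were below the filter.

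Whether the tumor difference was larger in endothelial-gated than in other cells was tested in 1 model over both gates of 8 mice, a test added after the data were seen. For Ccn2 it exceeded that in myeloid-gated cells by 5.84 ± 1.10 on the log2 scale (edgeR adjusted p = 0.0345, with 0.322% of 9318 genes called). Against astrocyte-gated cells it was 3.98 ± 1.96 (adjusted p = 0.543, 0.105% of 9558 genes called). The first call was lost without any 1 control or tumor 2 (adjusted p = 0.0793 to 0.435). In this model too Ccn2 rests on 3 UMIs in endothelial-gated controls and on myeloid-gated levels below the low-depth level in tumors, so its p is not read as support. For Ccn1 the differences were 2.12 ± 2.76 and 1.94 ± 1.90, with adjusted p = 0.871 and 0.818.

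In astrocyte-gated cells, Tead2 and Ccn1 were higher in tumors. They were called among 6 members tested, where 23.3% of 9091 genes were called and 13.1% were called higher, but both passed the filter on low counts through the tumors, where they are high, so neither the count of members called nor their p-values are read as support. Tead2 had 0 UMIs in the astrocyte-gated cells of all 4 controls, and 5.70, 51.0, 61.8, 77.6 and 31.1 CPM in tumors 1 to 5 (edgeR adjusted p = 0.0191). Against a floor of 3 counts over the control group, 5.47 CPM, the pooled tumor level was at least 9.88-fold higher, and at least 5.88-fold without tumor 4, which gave 407 of the 589 UMIs. Tumor 1 was close to that floor. Ccn1 measured 10.2, 0, 5.95 and 8.77 CPM in controls and 17.1, 91.1, 47.8, 101 and 24.8 CPM in tumors, without overlap (log2 fold change 3.48 ± 0.92, edgeR adjusted p = 0.0179). The astrocyte-gated Ccn1 and Tead2 levels lay above the low-depth level in 5 of 5 tumors. Without the cells that carried a fusion-allele UMI this held for Ccn1 in 5 and for Tead2 in 4 of 5, with Tead2 in tumor 4 at 57.7 CPM against a low-depth level of 59.9 CPM.

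Of astrocyte-gated tumor cells, 6.26% to 77.0% per mouse carried a fusion-allele UMI, and a cell without such a UMI can still carry the allele. Both calls held without the cells that had one, against the same control cells, so this is not read as support either. Each was lost in some fits that left out 1 mouse: none was called with limma voom or without control 2 or any 1 of tumors 2 to 5, where Tead2 and Ccn1 fell below the filter in the fits without a tumor. The neuron list summed to 2393 to 3921 CPM in astrocyte-gated controls and 286 to 1054 CPM in tumors, with a median of 4 and 1 of its 8 genes detected per cell. The summed immediate early genes were at 137 to 296 CPM in controls and 373 to 2923 CPM in tumors and the cycling list at 0 to 26.3 CPM with 5 genes at 0 against 28.5 to 317 CPM, and their part was not tested. Wwtr1 (log2 1.35 ± 0.52, edgeR adjusted p = 0.0774), Tead1 (0.55 ± 0.29), Yap1 (0.34 ± 0.38) and Amotl2 (-1.04 ± 0.52) did not pass the test.

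Few members could be tested in the other gates. In myeloid-gated cells 33.1% of genes were called, and Tead1, the 1 member above the filter and not called, had a log2 fold change of 1.50 ± 0.66 (edgeR adjusted p = 0.105, unadjusted p = 0.0436). Below the filter in that gate, the ratio of pooled tumor to control counts was 11.5 for Ccn1 (95% counting interval 3.14 to 95.5, 2 control UMIs) and 6.46 for Tead2 (2.18 to 31.6, 3 control UMIs). Without tumor 4 these ratios were 7.13 and 3.15. Myeloid-gated Ccn1 lay above the low-depth level in 3 of 5 tumors and Tead2 in 1 of 5. In neuron-gated cells 13.5% of genes were called and 6.56% were called higher, and Tead1 was the 1 of 6 members called, with 25.4, 25.6, 27.7 and 26.6 CPM in controls and 44.7, 41.6, 31.9 and 39.3 CPM in tumors 1, 2, 3 and 5 (log2 0.52 ± 0.16, edgeR adjusted p = 0.0489). The groups did not overlap, but the low-depth level of these tumors for Tead1 was 49.0 to 92.0 CPM, and the call was lost without any 1 control. Ccn2 in neuron-gated cells differed by -0.04 ± 0.34 (edgeR adjusted p = 0.955). No member passed the filter in oligodendrocyte-gated cells, where 30.1% of genes were called, and mural-gated cells could not be compared because controls held 1 such cell.

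Comparing cell types inside the same tumors avoids the thin controls. Against endothelial-gated cells of the same 5 tumors, fusion-allele cells had lower Ccn2, Wwtr1, Ccn1 and Amotl2 and higher Tead2. Ccn2 fell by 6.25 ± 0.39 on the log2 scale, lower in 5 of 5 tumors (edgeR adjusted p = 2.28e-06), with 1, 54, 0, 54 and 54 UMIs on the fusion-allele side. Wwtr1 fell by 3.74 ± 0.38, from 167 to 282 CPM in endothelial-gated cells to 29.1, 41.9, 7.0, 22.1 and 10.8 CPM (edgeR adjusted p = 4.97e-05), of which 3 lay below the low-depth level. Amotl2 fell by 2.48 ± 0.35 and Ccn1 fell by 2.25 ± 0.48 (edgeR adjusted p = 0.000347 and 0.00414), with 0, 40, 17, 247 and 25 Amotl2 UMIs in fusion-allele cells of tumors 1 to 5. Tead2 was higher by 1.18 ± 0.31 (edgeR adjusted p = 0.0115), from 11.0, 9.06, 42.7, 49.2 and 30.5 CPM in endothelial-gated cells. These 5 of 7 members tested stood among 44.2% of genes called, 22% of the genes tested being higher and 22.2% lower. Each passed the filter through the gate in which it is higher, so neither the count of members called nor these p-values are read as support. In fusion-allele cells Ccn2 lay below the low-depth level in 5 of 5 tumors, and Amotl2 above it in 1 of 5. The values per tumor stand as a description. The endothelial list summed to 58.1 to 214 CPM in the fusion-allele cells and 11019 to 19504 CPM in the endothelial-gated ones. Yap1 (-0.90 ± 0.37, edgeR adjusted p = 0.0737) and Tead1 (0.47 ± 0.20, edgeR adjusted p = 0.0878) did not pass.

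**Figure D5:**
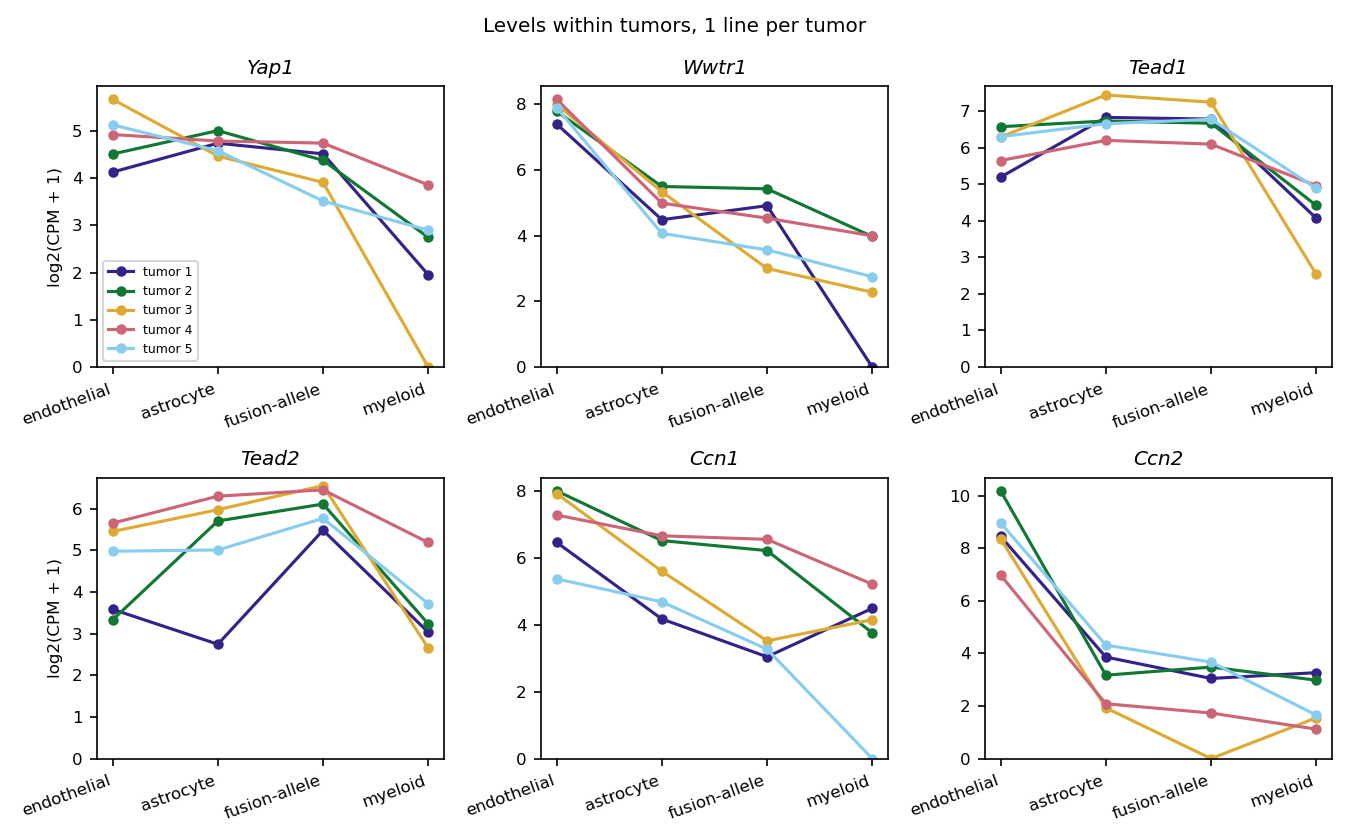
Levels of 6 genes as log2(CPM + 1) in endothelial-gated, astrocyte-gated, fusion-allele and myeloid-gated cells, 1 line per tumor. Ccn2 and Wwtr1 drop from endothelial-gated cells to the other gates shown in every tumor, and Ccn1 in fusion-allele cells spreads from 7.26 to 93.5 CPM between tumors.

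Against astrocyte-gated cells of the same tumors, 0 of 8 members tested were called in fusion-allele cells, where 20.5% of genes were called. The astrocyte-gated cells were not free of the allele. Of them 6.26%, 34.4%, 7.36%, 77.0% and 25.9% carried a fusion-allele UMI in tumors 1 to 5. The comparison is thus not one with normal astrocytes, and 0 calls does not show that levels were alike. The nearest were Tead2 (0.57 ± 0.20, edgeR adjusted p = 0.0635), Ccn1 (-0.65 ± 0.25, edgeR adjusted p = 0.0858) and Yap1 (-0.50 ± 0.20, edgeR adjusted p = 0.100). At an unadjusted p under 0.05 these 3 passed, and all 3 were called without tumor 4. DESeq2 called 1, and so did edgeR without the astrocyte-gated cells that carried a fusion-allele UMI. Against myeloid-gated cells, where 44.1% of genes were called and 22.6% were called higher, 4 of 8 members were higher in fusion-allele cells: Tead2 by 2.13 ± 0.36, Tead1 by 2.03 ± 0.42, Tead3 by 1.26 ± 0.36 and Amotl2 by 1.38 ± 0.41 (edgeR adjusted p = 0.00156, 0.00457, 0.0189 and 0.0221). Without tumor 2, 4 or 5 only Tead1 and Tead2 were called. Of the 5 fits that left out 1 tumor, Amotl2 was tested in 3 and Tead3 in 4. Amotl2 lay above the low-depth level in 1 of 5 tumors in fusion-allele cells. In myeloid-gated cells Amotl2 and Tead1 lay above it in no tumor. Neither this count nor the p-values against myeloid-gated cells are read as support.

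Ccn1 varied widely between the tumors themselves. In fusion-allele cells it measured 7.26, 73.8, 10.5, 93.5 and 8.68 CPM in tumors 1 to 5, and lay above the low-depth level of the same library in 3 of 5. Tumors 2 and 4, the high ones, gave 38.5% and 67.6% of their Ccn1 UMIs from fusion-allele cells, 23.4% and 56.7% of their kept cells. Tumors 1, 3 and 5 gave 0.917%, 1.63% and 21.1% from these cells, 1.39%, 3.95% and 22.9% of their kept cells. Fusion-allele cells also held 5323576 of the 16880559 UMIs of all genes in tumor 2, and 23255013 of 37652982 in tumor 4. Tumor 4 alone held 2174 of the 2614 Ccn1 UMIs of fusion-allele cells, so the pooled share of 53.3% mostly describes that tumor. The same tumor held 2009 of the 2676 Tead2 UMIs of fusion-allele cells, and the share of Tead2 UMIs in these cells was 15%, 48.9%, 18.9%, 70.8% and 39.0% in tumors 1 to 5. Ccn1 in endothelial-gated cells was highest in tumors 2 and 3, so the order of tumors differed between these gates.

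The rest of the pathway was read from lists of 19 Hippo kinases and brakes, 18 other YAP and TAZ signature targets and 8 immediate early genes. Lats2 and Ptpn14 were in both the Hippo and the target list, so the counts of these lists are not separate. Over all kept cells, where 61.6% of all genes were called and 32.3% were called higher, 7 of the 19 Hippo genes rose and 2 fell (median log2 0.51, against 0.04 over all genes tested), with Vgll4, a TEAD-binding repressor, at log2 1.65 and the cadherin Dchs1 at 1.46 among those that rose and Mob1b at -0.53 and Frmd6 at -0.64 as those that fell. Of the 18 other targets 8 rose and 0 fell (median 0.87), including F3, tissue factor, at log2 2.08 and the receptor kinase Axl at 4.71. Of the 8 immediate early genes 7 rose (median 3.43), including Jun at 3.48 and Ier2 at 4.56.

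Within gates fewer genes of any kind were called. In endothelial-gated cells, where 9.18% of all genes were called, 0 of 12 Hippo genes tested were called by edgeR (1 at an unadjusted p under 0.05), and of 8 other targets Igfbp3 was higher and Tgfb2 lower (log2 -1.68). Igfbp3, a secreted binder of insulin-like growth factors, had 0 UMIs in the 3 controls (1 UMI in control 4, not in this fit) and was at least 19.9-fold higher against a floor of 3 counts over the group, and at least 12.7-fold without tumor 2, which gave 375 of the 775 UMIs. It passed the filter through the tumors, so its call is not read as support. In astrocyte-gated cells (23.3% of all genes called) 0 of 16 Hippo genes were called (4 at an unadjusted p under 0.05). Of 11 other targets 1 was called, Axl at log2 2.87. Of 6 immediate early genes 5 were called, Jun at 2.48 and Fos at 4.66 among them. Fos there rests on 2, 1, 1 and 2 UMIs and Axl on 2, 2, 6 and 2 UMIs in controls 1 to 4. With so few control UMIs, neither their calls nor the counts called from these lists in this gate are read as support. In myeloid-gated cells (33.1% called) Taok1, 1 of 14 Hippo genes tested, fell by 0.74, Nuak2 and Axl of 8 other targets rose by 3.32 and 2.75, and 6 of 8 immediate early genes rose, Junb by 2.00 and Ier2 by 3.67. In neuron-gated cells (13.5% called) Wwc1 and Wwc2 (both 0.54), Axl (2.55) and Jun (0.84) were called higher.

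Inside tumors more genes of these lists were lower than higher in fusion-allele cells when set against endothelial-gated cells. A list gene can pass the filter through the gate in which it is higher, as the members did. Neither the counts nor the calls of this paragraph are therefore read as support, and the low-depth level was not set beside them. With 22.2% of all genes called lower and 22% higher, in fusion-allele cells 9 of 17 Hippo genes tested were lower than in endothelial-gated cells and 1 higher (median log2 -0.83, against 0.06 over all genes), with the kinase Lats2 at -2.45 and Wwc2 at -2.73 lower and Wwc1 at 2.55 higher. Of 13 other targets 8 were lower and 3 higher (median -2.42), with Foxf2 at -6.10 and Myof at -4.71 lower and Axl at 2.38 and Fjx1 at 1.96 higher, and of 8 immediate early genes Egr1 was higher at 1.07 and 3 were lower, including Atf3 at -2.42 and Dusp1 at -1.65. Against astrocyte-gated cells (20.5% of all genes called) Amot (-1.30) was the 1 of 18 Hippo genes called, 4 of 14 targets were lower, F3 at -2.64 and Ccdc80 at -1.58 among them, and Fosb was higher at 0.77. Against myeloid-gated cells (44.1% called) 3 Hippo genes were higher (Wwc1 at 1.01, Map4k4 at 0.44) and 2 lower (Mob1a at -1.94, Stk4 at -1.23) of 18, 6 targets were higher (Fjx1 at 1.70, Nt5e at 1.51) and Asap1 lower at -0.62 of 15, and 3 immediate early genes were lower, including Junb at -1.99 and Atf3 at -3.35.

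Genes with levels most like those of 4 members were looked up across gates. Over 65 sums of a mouse and a gate, which share libraries, and 15694 genes, the Pearson correlation of log2(CPM + 10) with Wwtr1 was highest for Epas1 (0.90), a hypoxia-inducible factor of endothelium, Tm4sf1 (0.89), an endothelial surface protein whose gene lies 67907 bases from Wwtr1 on chromosome 3, and the Wnt receptor Fzd6 (0.89). For Ccn2 it was highest for Angpt2 (0.89), an angiopoietin released by endothelial cells, Vsig2 (0.88) and Map3k6 (0.86). For Ccn1 the leading genes were Rras (0.85), the collagen chaperone Serpinh1 (0.84) and Gm26632 (0.83), and for Yap1 they were Prex2 (0.82), Gstt2 (0.81) and the laminin chain Lamb2 (0.76). Among the members, Wwtr1 correlated with Ccn1 at 0.76 and with Ccn2 at 0.74, and Ccn2 with Tead2 at 0.05.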

How the data were processed

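Per the labels, libraries were 10x 5' gene expression, aligned by the authors to mm10 with 4 added sequences (Cell Ranger 6.1.2 in the matrix headers, Cell Ranger 7 and Scanpy 1.8.2 in the submitters' processing notes). The deposited values are raw UMI counts per gene and barcode, with no normalization. Control 4 listed fewer features than its matrix has rows, so its added sequences were read in the order of the other libraries.

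The 10000 barcodes with most UMIs per library were considered. Barcodes with 200 to 6000 genes were kept, those in the high-mitochondrial component of a 2-component Gaussian mixture (scikit-learn 1.9.0) were removed, and doublets were removed with Scrublet (Scanpy 1.11.5) at 0.8% per 1000 barcodes. A cell was gated by the marker list, of 15 lists of 8 genes, with most genes detected, if at least 3 were detected with a lead of 2. Counts were summed per mouse and gate (at least 20 cells, or 10 for endothelial and oligodendrocyte gates because 20 left 1 control mouse), and CPM is per 1000000 UMIs of the summed cells. Groups were compared with the edgeR 4.0.16 quasi-likelihood test (TMM, filterByExpr, Benjamini-Hochberg over all genes tested, threshold 0.05, two-sided), with the mouse as a term within tumors. DESeq2 1.42.0, limma 3.58.1 voom, other normalization, filters, gates and mice left out were tried as alternatives.

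On simulated data, 200 genes changed by 1.5 on the log2 scale were recovered by edgeR at 24.5% over all kept cells (17128 genes). The share was 13.5% in endothelial-gated cells (5386 genes), 14% in astrocyte-gated cells (8155 genes) and 75.0% for fusion-allele against endothelial-gated cells (7279 genes). Changes of that size were thus mostly missed in all but the last of these, and smaller ones can be missed too. Of the simulated calls, 7.55%, 10%, 3.45% and 1.32% were false, and 8.96% for the difference between endothelial- and myeloid-gated cells (9318 genes). Intervals and floors of 3 counts cover counting error only. Replicates of a group differed beyond sampling noise. No label says that libraries came from separate litters or days, so p-values measure the spread between these libraries. The members and lists were chosen with earlier results of these data known. Named genes were the 10 members, the 2 genes with the smallest p in each direction from each list, and the 3 genes most like Yap1, Wwtr1, Ccn1 and Ccn2.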

Additional observations from a re-analysis of the deposited data

Results flagged for a closer look

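Tead2 in myeloid-gated cells was at 35.4 CPM in tumor 4, far from the other 4 tumors, of which the next reached 12.1 CPM. In that tumor 37.1% of myeloid-gated cells carried a fusion-allele UMI, against 1.53% to 10.0% in the other tumors, and the low-depth level of Tead2 (the 3000 barcodes with the fewest UMIs) was 59.9 CPM.

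Ankrd1 in fusion-allele cells was at 0.989 CPM in tumor 4 (23 UMIs) and at 0 in the other 4 tumors, which held 33 to 833 such cells against 2903. The level that 3 counts would give was 21.8, 0.564, 5.25 and 0.651 CPM in tumors 1, 2, 3 and 5, so at tumors 1 and 3 a level like that of tumor 4 was not detectable. Of 53 sets of mice looked at in this way, 2 held such a mouse, and chance gives about 1 in 20.

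The tumor difference of Ccn2 was larger in endothelial-gated than in myeloid-gated cells by 5.84 on the log2 scale (edgeR adjusted p = 0.0345, 8 mice), and was not called without any 1 control or without tumor 2. It rests on 3 Ccn2 UMIs in endothelial-gated controls and on myeloid-gated levels below the low-depth level in all 5 tumors, and is given as a value only.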

How the results depend on the processing

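Over all kept cells 8 members were called in the main analysis and 8 to 9 in fits leaving out 1 mouse. The other counts of members called moved as follows, and the cause was not tested where none is named. In astrocyte-gated cells 2 became 0 with limma voom, 1 with a mitochondrial limit of 10%, 5 with no limit on barcodes, 4 with a looser gate and 0 to 2 without 1 mouse. In neuron-gated cells 1 became 0 with limma voom, a mitochondrial limit of 10%, at least 500 genes or no progenitor UMI, 2 with a looser gate and 0 to 2 without 1 mouse. In myeloid-gated cells 0 became 2 with no filter and 1 with a looser gate. In endothelial-gated cells 2 became 0 with limma voom and 0 to 2 without 1 mouse, and Yap1 ranged from -0.86 to 0.28 without 1 mouse, the latter without control 1. Within tumors, 5 members against endothelial-gated cells became 8 with no filter. Against astrocyte-gated cells 0 became 1 with DESeq2, no filter, a mitochondrial limit of 10%, no limit on barcodes or without astrocyte-gated cells with a fusion-allele UMI, 2 with a stricter gate, 3 with cycling-gated cells and 0 to 3 without 1 tumor. Against myeloid-gated cells 4 became 7 with no filter, 2 with cycling-gated cells and 2 to 5 without 1 tumor. The share of endothelial-gated cells with Ccn2 was 33.6%, 41.9% without thinning and 22.3% at 1000 UMIs, and that of fusion-allele cells with Tead2 was 14.4%, 40.1% and 6.68%.

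Counts over all genes moved by more than 1.5 times in some settings. Over all kept cells 10849 genes became 7077 with no limit on barcodes. In astrocyte-gated cells 2115 became 1185 with limma voom, 3737 with no limit on barcodes, 3640 with a looser gate and 1130 to 2293 without 1 mouse. In endothelial-gated cells 556 became 1301 with no filter, 1538 with a looser gate, 861 with at least 5 cells and 7 to 723 without 1 mouse. In neuron-gated cells 2020 became 305 with no limit on barcodes and 779 to 2390 without 1 mouse. In oligodendrocyte-gated cells 377 became 1095 with no filter, 962 with no limit on barcodes and 844 with a looser gate. Within tumors 3529 became 5311 with no filter against endothelial-gated cells, and 2321 became 900 to 2266 without 1 tumor against astrocyte-gated cells.

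Same-numbered samples did not deviate together (correlations 0.00506 to 0.0472), so the numbers were not used as pairs. With the replicate block, 8 members were called over all kept cells, 2 in endothelial-gated, 3 in astrocyte-gated and 0 in neuron-gated cells, where 2020 genes called became 568. Without the mouse as a term, 526 genes were called for fusion-allele against astrocyte-gated cells.

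A minimum of 50 cells and a stricter gate could not be fitted for astrocyte-, endothelial- and oligodendrocyte-gated controls, nor a mitochondrial limit of 10% or no limit on barcodes for endothelial-gated ones, because fewer than 3 control mice had enough cells. Depth limits Tead4, Ankrd1 and all members in control gates, where a handful of UMIs sets each value.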

Other observations

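In OPC-gated tumor cells, which carry markers of oligodendrocyte precursors, Amotl2 was at 36.9 ± 14.2 CPM (SD, n = 4 tumors), with 24.6 CPM the lowest and 50.1 CPM the highest. This level was not particular to them. Amotl2 was at 63.8 CPM in endothelial-gated, 38.5 in mural-gated and 27.0 in oligodendrocyte-gated cells, with overlapping ranges. The few ependymal-gated cells had 130, 128 and 78.0 CPM in tumors 1, 2 and 5 (8, 18 and 4 UMIs). In OPC-gated cells Wwtr1 was at 13.5 ± 2.18 CPM, Yap1 at 2.73 ± 3.15 CPM and Ccn2 at 1.07 ± 2.14 CPM. These 3 lay below the low-depth level in all 4 tumors, and Amotl2 above it in all 4. Yap1 rests on 0, 1, 5 and 0 UMIs and Ccn2 on 0, 0, 4 and 0 UMIs in tumors 2 to 5. In radial glia-gated cells of tumor 2, Ccn1 was at 32.5 CPM (4 UMIs), against a low-depth level of 33.8 CPM. In those of tumor 4 it was at 129 CPM (23 UMIs), against 23.3 CPM.

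Cycling-gated tumor cells held Tead1 at 73.0 ± 30.6 CPM, Tead3 at 10.8 ± 2.86 CPM and Ccn1 at 29.4 ± 24.8 CPM (n = 3 tumors). For Ccn1 these 3 tumors ranged from 2.00 to 50.1 CPM. Cycling-gated Tead1 and Tead3 lay above the low-depth level in tumor 5 only, and Ccn1 in tumors 2 and 4.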
